A study of Mus musculus with 24 samples.

Results

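Infarcted hearts with reduced activity of phosphoinositide 3-kinase (PI3K) were compared with infarcted hearts of normal genotype. The comparison took every array titled dnPI3K MI (4 arrays) and every array titled Ntg MI (4 arrays), 8 of the 24 arrays of the series, and the 14763 genes that passed a filter on low signal over all 24 arrays. Choosing the arrays by title used no measured value. The dnPI3K mice carried a dominant negative PI3K transgene, expressed in the heart, and the Ntg mice were nontransgenic. All were FVB/N mice on standard chow. At 4 months of age they had an operation to cause a myocardial infarction (MI), and hearts were taken 8 weeks later. The matching sham groups, dnPI3K sham and Ntg sham, had the control operation at the same age, with 4 arrays each. Another genotype, caPI3K, carried a transgene that raises PI3K activity and is used here for the shared estimate of spread and for values set beside the others. The labels describe the dnPI3K MI hearts as having worse function and more fibrosis than infarction gave without the transgene. The sources used here do not give the promoter of the transgene or the sex of the mice, for which marker genes are given below. Hearts were homogenized one by one, but the labels do not say that each array is a separate mouse, so the p-values speak only to the spread among arrays, which may be technical.

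PI3K of the class used here sits below the insulin and insulin-like growth factor 1 (IGF1) receptors. Receptor activation brings in adaptor proteins such as the insulin receptor substrates, PI3K then makes a membrane lipid signal, and the kinase Akt passes it on to cell growth, glucose use and the FoxO transcription factors. In the heart this route is known for physiological growth, and a dominant negative form is known to give smaller hearts.

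RNA of whole hearts was labelled and hybridised to Affymetrix arrays, and each value below is the log2 of the deposited signal plus a small constant, 11.2. A difference of 1 on this scale is a doubling. Genes of working cardiac muscle were bright on all 8 arrays: Myh6 lay between 15.68 and 15.88, Tnnt2 between 15.70 and 15.87, and Myl2 between 15.57 and 15.80. Of the marker genes for sex, Xist, which is expressed in female cells, was also bright on all 8 arrays. The Y-linked genes Kdm5d and Uty lay far below Xist on all 8, with their lowest values near the lowest signals. That is the pattern of female tissue, although sex was not tested. The median signal was 105 to 115 on 7 of the 8 arrays and 151 on dnPI3K MI replicate 1. Arrays of the same group correlated at 0.921 to 0.960 across genes, and arrays of different groups at 0.917 to 0.961. The 99th percentile of signal was 16733 to 17508 on the Ntg MI arrays and 15778 to 16769 on the dnPI3K MI arrays, so the bright end sat lower in the transgenic group. Ntg MI replicate 1 stood above the other 7 arrays in immune genes, with a median of 0.64 for interferon response genes and 0.89 for MHC class II genes relative to the mean of the 8 arrays. Among the sham arrays Ntg sham replicate 4 stood apart from the other Ntg sham arrays, with a median relative to the 8 sham arrays of 0.53 for matrix genes (the other 3 at -0.29 to -0.16), 0.56 for fetal and wall-stress genes (-0.18 to -0.07) and 0.50 for fibroblast markers (-0.29 to -0.16). Its Postn signal, of a matrix protein of activated fibroblasts, was 13.51 against 11.04 to 11.70. This array enters the shared spread of every test, and without it 470 genes were called between the MI groups. Array numbers in the titles differ widely and give no batch.

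Between dnPI3K MI and Ntg MI hearts 381 of the 14763 genes differed at an adjusted p below 0.05 (2.58%), of which 96 were higher (0.65%) and 285 lower (1.93%) in dnPI3K MI. The 5 genes of smallest p were Lrtm1, Hjv, Plbd1, Ppil1 and Rabep2, all lower. Casq1, Myl1 and Grb14 were also lower, and Dusp4, Bex1, Slc38a1 and Htra4 were higher. Among gene groups, the enzymes of fatty acid oxidation and the proteins of the mitochondrial ribosome were lower by small amounts in many members at once. Each count of called members in a group below is to be set beside the shares of all tested genes, 0.65% higher and 1.93% lower. The median difference of the called genes was 0.61 for the 96 that were higher and -0.46 for the 285 that were lower. The median over all tested genes was 0.01, with 52.1% above 0. The test was limma with one mean for each of the 6 groups and Benjamini-Hochberg adjustment, and every adjusted p below comes from it. At an unadjusted p below 0.05 the count was 2242. The arrays of the groups did not overlap for 82 of the 96 higher and 252 of the 285 lower genes. Over all tested genes the dnPI3K MI arrays lay wholly above the Ntg MI arrays in 494 (3.35%) and wholly below in 677 (4.59%). Genes called lower were bright, with a median level of 11.14 against 8.61 for all tested genes and 9.71 for those called higher. These are whole hearts, in which fewer cells of a type and less RNA per cell cannot be told apart.

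The size of the list rested on single arrays. It held 227 genes without Ntg MI replicate 3, 217 without Ntg MI replicate 4 and 247 without dnPI3K MI replicate 2, against 491 without Ntg MI replicate 1. Of those 227, 217, 247 and 491, the genes shared with the 381 numbered 217, 207, 225 and 335, each with the same direction. Since these fits share nearly all arrays, that direction is no separate support.

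The signalling route of the transgene itself showed 4 called members among the 39 measured genes of the insulin, IGF1 and PI3K pathway. Irs1 and Igf1r, upstream of PI3K, were higher, and Grb14 and Eif4e were lower. Grb14 is an adaptor that binds the insulin receptor and restrains it. Its log2 signal was 12.54, 12.62, 12.85 and 12.96 on the Ntg MI arrays and 11.96, 11.78, 12.03 and 12.12 on the dnPI3K MI arrays. Every dnPI3K MI array was below every Ntg MI array. The difference was -0.77 ± 0.09 (SE), with an adjusted p of 1.75e-05, a 1.7-fold lower signal. Irs1 encodes the docking protein that recruits PI3K to the receptor. Irs1 read 11.34, 11.48, 11.68 and 11.37 on the Ntg MI arrays and 12.14, 12.32, 12.06 and 11.65 on the dnPI3K MI arrays. Its lowest dnPI3K MI array fell just under the highest Ntg MI array, and the other 3 lay above all of that group. Irs1 differed by 0.57 ± 0.12 (SE), with an adjusted p of 0.00554.

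Igf1r, the receptor for IGF1, read 9.78, 9.76, 10.08 and 9.50 in Ntg MI and 10.27, 10.58, 10.40 and 10.02 in dnPI3K MI, and the groups overlapped. Its difference of 0.54 ± 0.15 (SE), with an adjusted p of 0.0482, was the least stable of the 4, since the call was lost without Ntg MI replicates 1, 2 and 4 or dnPI3K MI replicates 1, 2 and 3, with an adjusted p up to 0.187. Eif4e, the factor that binds the messenger RNA cap to start translation, differed by -0.55 ± 0.12 (SE), with an adjusted p of 0.0113, with no overlap. The subunits of the enzyme gave values that did not pass: the catalytic subunit gene Pik3ca differed by -0.29 ± 0.15 (SE), with an adjusted p of 0.368, and the regulatory subunit gene Pik3r1 by -0.29 ± 0.16 (SE), with an adjusted p of 0.413. The 6 probe sets that name Pik3ca gave differences between -0.49 and -0.27, so none of them showed a higher signal in dnPI3K hearts. The sources used here do not say whether these probe sets can detect the transgene, so the values do not show whether it was expressed. Foxo1 differed by 0.07 ± 0.10 (SE), with an adjusted p of 0.799. The median over the 39 pathway genes was 0.07. Among 28 FoxO factors and targets 2 were called: Ctsl, a lysosomal protease, at 0.32 ± 0.08 (SE; adjusted p = 0.0274), and Sod2, the superoxide dismutase of mitochondria, at -0.28 ± 0.07 (SE; adjusted p = 0.0434). Single arrays decided both: Ctsl without Ntg MI replicates 3 and 4 or dnPI3K MI replicates 2 and 3 (adjusted p up to 0.0914); Sod2 without Ntg MI replicates 2, 3 and 4 or dnPI3K MI replicates 1, 2, 3 and 4 (adjusted p up to 0.175).

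The bases just upstream of Grb14 and Irs1 are shown because these are the pathway genes whose calls held without each of the 8 arrays in turn and that also differed between the sham groups. Each run is the 250 bases before the gene's start in RefSeq on build GRCm38.p6, read 5′ to 3′ on the gene's strand.

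Grb14 (chr2:65022767-65023016, minus strand): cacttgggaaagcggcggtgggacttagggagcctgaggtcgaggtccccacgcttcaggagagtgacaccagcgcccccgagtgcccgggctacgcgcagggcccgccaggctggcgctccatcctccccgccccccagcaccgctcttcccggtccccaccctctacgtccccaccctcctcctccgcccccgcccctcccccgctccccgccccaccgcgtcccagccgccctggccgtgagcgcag

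Irs1 (chr1:82291440-82291689, minus strand): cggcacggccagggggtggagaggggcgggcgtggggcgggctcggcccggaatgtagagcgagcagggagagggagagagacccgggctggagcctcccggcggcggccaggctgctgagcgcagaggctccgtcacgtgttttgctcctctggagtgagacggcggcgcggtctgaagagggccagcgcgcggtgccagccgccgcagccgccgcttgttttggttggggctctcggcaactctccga

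No capitals appear in these runs, which means only that none of the 6 motifs searched, named with the muscle genes further on, is spelled in these windows.

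**Figure D1:**
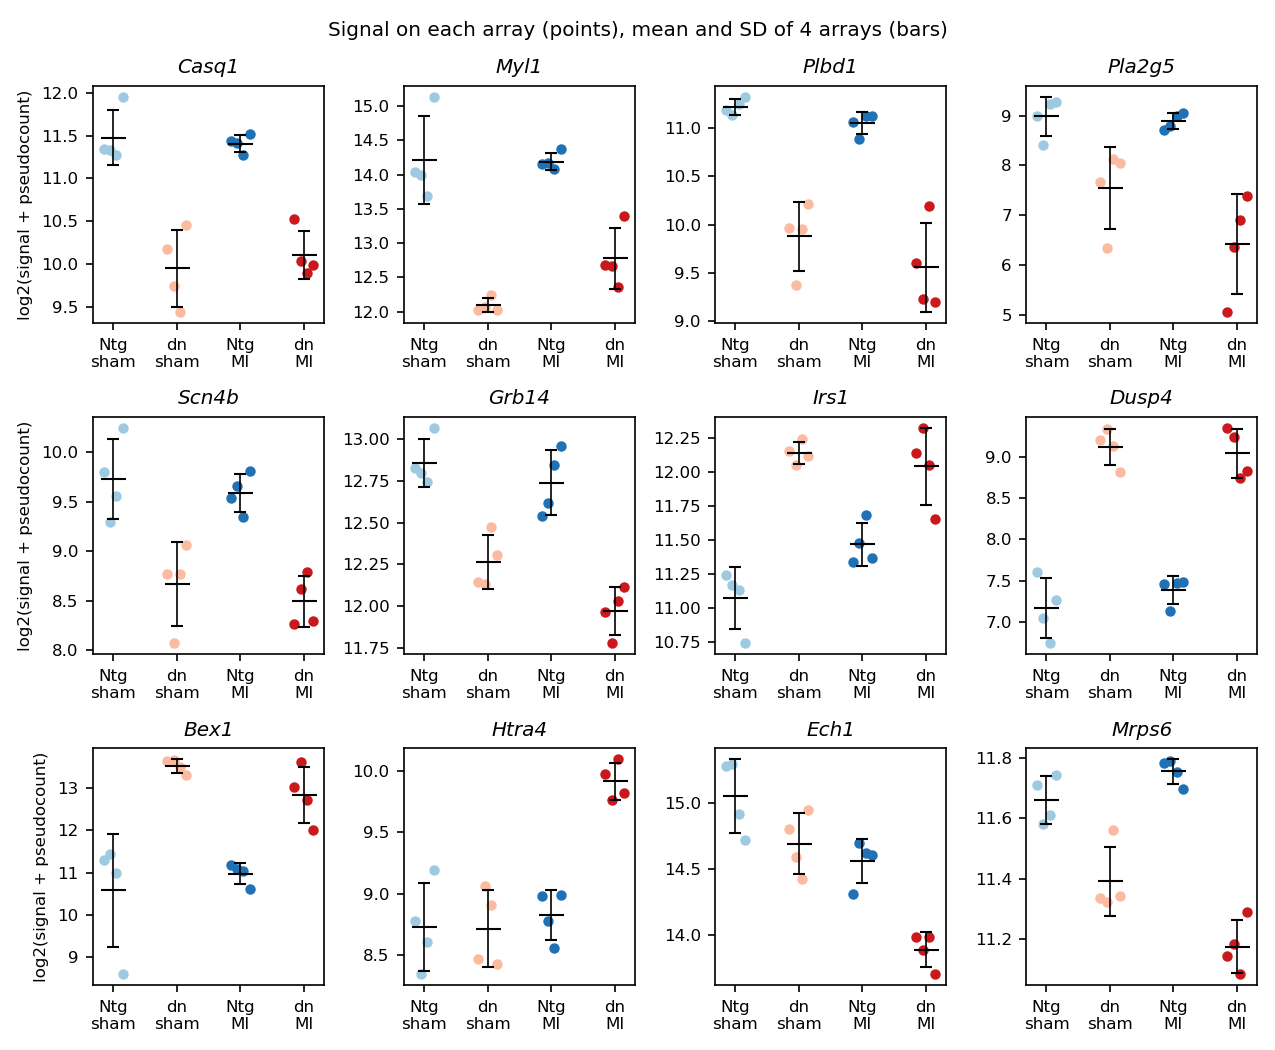
Log2(signal + 11.2) of 12 genes (vertical axes) on each array of the 4 groups Ntg sham, dnPI3K sham, Ntg MI and dnPI3K MI, with the mean and SD of 4 arrays as bars. In 11 of the 12 panels the Ntg MI and dnPI3K MI arrays do not overlap, and Irs1 is the exception; Htra4 lies apart in infarcted hearts while its sham groups share a range.

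Casq1 encodes the calsequestrin of skeletal muscle, which binds calcium in the sarcoplasmic reticulum. Casq1 signals were 11.43, 11.41, 11.27 and 11.52 on the Ntg MI arrays and 10.52, 10.03, 9.90 and 9.99 on the dnPI3K MI arrays. The groups were apart by more than the spread of either. The difference was -1.30 ± 0.17 (SE), with an adjusted p of 6.03e-05, or 2.46-fold lower. Myl1 encodes an essential light chain of skeletal muscle myosin and read 14.15, 14.16, 14.07 and 14.38 in Ntg MI against 12.69, 12.67, 12.35 and 13.40 in dnPI3K MI. The dnPI3K MI arrays were all lower, replicate 4 least so. Myl1 differed by -1.41 ± 0.20 (SE), with an adjusted p of 0.000153. These were the 2 called of 15 measured skeletal muscle markers, whose median was -0.15. The sign of that median rested on single arrays, since it was 0.05 without dnPI3K MI replicate 1, 0.11 without dnPI3K MI replicate 2 and -0.03 without Ntg MI replicate 1, and it was 0.13 with the mean of probe sets. Ckm and Acta1 among them differed by -0.21 ± 0.08 and 0.14 ± 0.17 (SE; adjusted p = 0.209 and 0.757).

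Scn4b encodes a beta subunit of the voltage-gated sodium channel. It read 9.54, 9.66, 9.35 and 9.81 on the Ntg MI arrays and 8.27, 8.62, 8.79 and 8.30 on the dnPI3K MI arrays, with every dnPI3K MI array lower. Scn4b differed by -1.09 ± 0.19 (SE), with an adjusted p of 0.00148. Kcnd2, a pore subunit of the transient outward potassium current, differed by -0.83 ± 0.15 (SE), with an adjusted p of 0.00266. The other 18 of the 20 measured ion channel genes were not called, and the median of the 20 was -0.22, or -0.11 without dnPI3K MI replicate 4, -0.13 without Ntg MI replicate 4 and -0.14 without dnPI3K MI replicate 2. Without Ntg MI replicate 1, Kcnk3 and Kcnv2 were called lower as well, and without dnPI3K MI replicate 1 Kcnh2 was. Hrc, a calcium-binding protein of the sarcoplasmic reticulum, was the only called gene of 20 in calcium handling, at -0.42 ± 0.10 (SE; adjusted p = 0.0128), and single arrays decided it: Hrc without Ntg MI replicates 3 and 4 (adjusted p up to 0.0717). Without Ntg MI replicate 1, the array with high immune genes, Cacna2d1, Cacnb2, Ryr2 and Trdn were called lower with Hrc, and Sri higher. The calcium pump Atp2a2, its inhibitor Pln and the release channel Ryr2 did not pass, at -0.08 ± 0.08, -0.04 ± 0.08 and -0.35 ± 0.16 (SE). None of 23 sarcomere genes was called by limma, with 7 at an unadjusted p below 0.05, and their median was -0.03.

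Lrtm1 and Hjv had the smallest p-values of all tested genes, and they, Ppil1 and Rabep2 were picked out after their values were seen. Lrtm1, a membrane protein with leucine-rich repeats, read 11.56, 12.07, 11.73 and 12.00 in Ntg MI and 10.68, 10.54, 10.47 and 11.01 in dnPI3K MI. Hjv, the haemojuvelin co-receptor for bone morphogenetic proteins, read 11.77, 11.80, 11.86 and 11.96 in Ntg MI and 10.72, 10.65, 10.78 and 10.98 in dnPI3K MI. Neither gene's groups overlapped. Ppil1, a cyclophilin of the spliceosome, and Rabep2, an effector of Rab GTPases, differed by -0.93 ± 0.10 and -1.06 ± 0.12 (SE; adjusted p = 3.61e-06 and 5.13e-06), also without overlap. A dimmer probe set of Rabep2 gave -0.09. With the mean of probe sets Rabep2 differed by -0.58 and was not called. Lrtm1 differed by -1.17 ± 0.12 (SE), with an adjusted p of 2.1e-06, and Hjv by -1.07 ± 0.11 (SE), with an adjusted p of 2.1e-06.

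The windows upstream of Casq1 and Myl1 are shown because these 2 genes of contractile muscle stood far apart between genotypes in both operations. Capitals mark CAGCTG, an E-box of the kind bound by muscle factors of the bHLH class, which reads the same on both strands.

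Casq1 (chr1:172219896-172220145, minus strand): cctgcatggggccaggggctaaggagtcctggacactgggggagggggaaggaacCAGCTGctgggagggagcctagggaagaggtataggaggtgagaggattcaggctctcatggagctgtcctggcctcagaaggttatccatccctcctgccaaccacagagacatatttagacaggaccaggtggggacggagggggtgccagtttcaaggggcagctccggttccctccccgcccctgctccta

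Myl1 (chr1:66945057-66945306, minus strand): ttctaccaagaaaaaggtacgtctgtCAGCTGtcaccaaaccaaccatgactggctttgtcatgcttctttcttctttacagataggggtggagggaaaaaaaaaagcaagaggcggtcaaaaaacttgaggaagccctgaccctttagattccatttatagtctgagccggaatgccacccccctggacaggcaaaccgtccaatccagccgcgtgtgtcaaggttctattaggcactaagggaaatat

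Each window held 1 such hexamer, at positions -195 to -190 for Casq1 and -224 to -219 for Myl1, counting -1 as the base before the start. Of 32851 windows of the same length listed by RefSeq, 4271 held it. Of tested genes with a window it was 12.1%, of 231 genes called lower 13.4%, and of 68 called higher 10.3%. The other 5 motifs were searched on both strands. The MEF2 site is named only, and 2.92% of all windows held it. AAGGTCA, the half-site of oestrogen-related receptors, was in 4.08%. GTAAACA, the FoxO core, was in 3.17%. CCGGAAG, a core bound by ETS factors, was in 6.91%, and the NRF1 site, named only, in 3.74%. None of the 5 was spelled in the windows printed here. These matches are a description of letters and not of binding.

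The genes with the largest differences among those lower were of several kinds. Plbd1 encodes a protein with a phospholipase B domain. It read 11.06, 10.89, 11.13 and 11.13 on the Ntg MI arrays and 9.60, 9.23, 10.20 and 9.20 on the dnPI3K MI arrays, which were all lower. Its difference was -1.50 ± 0.16 (SE), with an adjusted p of 3.61e-06. Pla2g5, a secreted phospholipase A2, read 8.72, 8.79, 8.98 and 9.05 in Ntg MI and 5.05, 6.36, 6.91 and 7.39 in dnPI3K MI, where its lowest arrays were near background. Pla2g5 differed by -2.46 ± 0.35 (SE), with an adjusted p of 0.000173, the largest difference in that direction, and the constant added before the log bounds its size. Fbp2, the fructose bisphosphatase of muscle, differed by -1.93 ± 0.44 (SE), with an adjusted p of 0.0123, and Prkcq, protein kinase C theta, by -2.04 ± 0.45 (SE), with an adjusted p of 0.00983. Both were above the 40th percentile of signal on 6 of the 8 arrays. Single arrays decided these calls: Fbp2 without Ntg MI replicate 3 or dnPI3K MI replicate 4 (adjusted p up to 0.0767); Prkcq without dnPI3K MI replicate 2 (adjusted p up to 0.057).

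Cyp2b10, a cytochrome P450 enzyme, differed by -1.82 ± 0.39 (SE), with an adjusted p of 0.00945, and Iqgap2, a scaffold protein of the IQGAP family, by -1.38 ± 0.26 (SE), with an adjusted p of 0.00266. Lgi1, a secreted leucine-rich protein, read 8.25, 7.21, 7.80 and 7.47 in Ntg MI and 4.16, 6.05, 6.60 and 6.18 in dnPI3K MI, where replicate 1 was near the lowest signals of the arrays. Lgi1 differed by -1.94 ± 0.42 (SE), with an adjusted p of 0.0094. The call was lost in the fit on the compared groups alone (adjusted p = 0.0852) and without replicate 1 of both MI groups (-1.22, adjusted p = 0.09), and the difference ran from -2.32 to -0.94 with the constant added before the log. Gm10336, a predicted gene, differed by -1.40 ± 0.19 (SE), with an adjusted p of 9.43e-05. Of the remaining genes among the 15 largest, Myl7, Myl1 and Retnla are described with their groups. Crybb1, Isl2, Rasl10b and Ooep were dim on some arrays, with differences of -1.51, -1.45, -1.34 and -1.33 and adjusted p from 0.012 to 0.0451. Their calls ended as follows when arrays were left out: Crybb1 without Ntg MI replicates 2 and 3 or dnPI3K MI replicates 1, 2 and 3 (adjusted p up to 0.17); Isl2 without Ntg MI replicates 3 and 4 or dnPI3K MI replicates 2 and 4 (adjusted p up to 0.107); Rasl10b without Ntg MI replicates 2, 3 and 4 or dnPI3K MI replicates 1 and 2 (adjusted p up to 0.108); Ooep without Ntg MI replicate 2 or dnPI3K MI replicate 4 (adjusted p up to 0.0552).

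Genes that were higher in dnPI3K MI hearts were fewer, and Dusp4 had the smallest p among them. Dusp4 encodes a phosphatase that switches off MAP kinases. It read 7.46, 7.13, 7.47 and 7.49 on the Ntg MI arrays and 9.35, 9.24, 8.75 and 8.83 on the dnPI3K MI arrays. Every dnPI3K MI array was at least 1 log2 unit above every Ntg MI array. Dusp4 differed by 1.66 ± 0.25 (SE), with an adjusted p of 0.000369, or 3.15-fold higher. Bex1, a small protein best known from neurons, read 11.17, 11.08, 11.03 and 10.62 in Ntg MI and 13.02, 13.60, 12.72 and 12.00 in dnPI3K MI, all of the latter higher. Bex1 differed by 1.86 ± 0.39 (SE), with an adjusted p of 0.00792. Of the 8 measured Bex and Tceal genes, Tceal8 was also called, at 0.57 ± 0.12 (SE; adjusted p = 0.00557), Tceal9 was not, at 0.40 ± 0.12 (SE; adjusted p = 0.0803), and 7 of the 8 lay above 0.

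Slc38a1, a transporter of glutamine and other small amino acids, read 7.83, 7.89, 8.02 and 8.34 in Ntg MI and 8.95, 9.66, 9.14 and 9.21 in dnPI3K MI without overlap. Slc38a1 differed by 1.22 ± 0.22 (SE), with an adjusted p of 0.00228. Htra4, a serine protease of the HtrA family, read 8.98, 8.78, 8.56 and 8.99 in Ntg MI and 9.97, 9.77, 10.10 and 9.82 in dnPI3K MI, again without overlap. Htra4 differed by 1.08 ± 0.17 (SE), with an adjusted p of 0.000685. Ccdc68, a coiled-coil protein, differed by 1.39 ± 0.26 (SE), with an adjusted p of 0.00266. Tac1, the precursor of substance P, differed by 0.87 ± 0.17 (SE), with an adjusted p of 0.00314, while its dim second probe set gave -0.98. Krt18, a keratin of simple epithelia, differed by 1.17 ± 0.29 (SE), with an adjusted p of 0.0274, and Chil1, a secreted chitinase-like protein, by 1.44 ± 0.38 (SE), with an adjusted p of 0.0337. Plcxd2, of the phospholipase C family, differed by 1.53 ± 0.39 (SE), with an adjusted p of 0.0274. Calls that ended when an array was left out were Krt18 without Ntg MI replicates 2 and 4 or dnPI3K MI replicates 2 and 4 (adjusted p up to 0.127); Chil1 without Ntg MI replicates 2, 3 and 4 or dnPI3K MI replicates 2, 3 and 4 (adjusted p up to 0.131); Plcxd2 without Ntg MI replicate 4 or dnPI3K MI replicates 2, 3 and 4 (adjusted p up to 0.118).

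Of the other genes among the 15 largest in this direction, Gm20199, Actr5, Gm15866, Pou3f1, Asic4, 4930448K20Rik, Speer4f1, Gm17455 and 5430402O13Rik had Ntg MI means between 4.58 and 6.10, near the lowest signals of the arrays. Their differences ran from 1.52 to 2.33, with adjusted p from 0.0143 to 0.0488, and no fold is given for signals this low. Each of these calls ended on leaving out some array: Gm20199 without Ntg MI replicate 4 or dnPI3K MI replicate 2 (adjusted p up to 0.0626); Actr5 without Ntg MI replicates 2 and 4 or dnPI3K MI replicates 2 and 4 (adjusted p up to 0.0746); Gm15866 without Ntg MI replicates 1, 2 and 4 or dnPI3K MI replicates 1, 2, 3 and 4 (adjusted p up to 0.118); Pou3f1 without Ntg MI replicates 2 and 3 or dnPI3K MI replicates 1, 2 and 3 (adjusted p up to 0.157); Asic4 without Ntg MI replicates 2 and 3 or dnPI3K MI replicate 1 (adjusted p up to 0.0966); 4930448K20Rik without Ntg MI replicates 2, 3 and 4 or dnPI3K MI replicate 3 (adjusted p up to 0.0876); Speer4f1 without Ntg MI replicates 3 and 4 or dnPI3K MI replicates 2 and 4 (adjusted p up to 0.0914); Gm17455 without Ntg MI replicates 2, 3 and 4 or dnPI3K MI replicates 1, 3 and 4 (adjusted p up to 0.176); 5430402O13Rik without Ntg MI replicates 1 and 3 or dnPI3K MI replicates 1 and 2 (adjusted p up to 0.122).

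Genes of mitochondria were lower by small amounts in many members. Of 35 measured genes of fatty acid uptake and oxidation 13 were lower, none was higher, and 32 lay below 0. Their median was -0.24, against 0.01 over all tested genes. The 13 were Ech1, Cpt2, Eci1, Acads, Slc25a20, Eci2, Decr1, Acaa2, Acadvl, Hadha, Acat1, Crat and Etfdh. Ech1, Eci1, Eci2 and Decr1 are the auxiliary enzymes that handle unsaturated fatty acids. Ech1 read 14.31, 14.70, 14.62 and 14.61 on the Ntg MI arrays and 13.98, 13.89, 13.99 and 13.71 on the dnPI3K MI arrays, with no overlap. Ech1 differed by -0.67 ± 0.12 (SE), with an adjusted p of 0.0013. Eci1 differed by -0.65 ± 0.13 (SE), with an adjusted p of 0.00513.

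Cpt2, which rebuilds acyl-CoA on the inner mitochondrial membrane, read 12.17, 12.41, 12.65 and 12.46 in Ntg MI and 11.83, 11.96, 11.86 and 11.57 in dnPI3K MI. Every dnPI3K MI array was lower. Cpt2 differed by -0.62 ± 0.12 (SE), with an adjusted p of 0.00305, whereas a second, dim probe set gave 0.70 and did not pass. Slc25a20, the carrier that moves acylcarnitines inward, differed by -0.45 ± 0.09 (SE), with an adjusted p of 0.00771. Acaa2, the last enzyme of the spiral, differed by -0.71 ± 0.16 (SE), with an adjusted p of 0.0127, and Acads and Acadvl, dehydrogenases of short and very long chains, by -0.43 ± 0.09 and -0.41 ± 0.10 (SE; adjusted p = 0.00517 and 0.0176). Acadm, the medium-chain dehydrogenase, did not pass, at -0.22 ± 0.09 (SE), with an adjusted p of 0.218. The regulators Ppara and Ppargc1a did not pass either, at -0.38 ± 0.14 and 0.20 ± 0.19 (SE; adjusted p = 0.175 and 0.68). With single arrays left out, the group had 7 to 14 members called lower: 7 without Ntg MI replicate 3 or dnPI3K MI replicate 4, and 8 without Ntg MI replicate 2 or 4. Its median on Ntg MI replicate 1 was -0.04, close to the dnPI3K MI arrays at -0.27 to -0.03, whereas the other Ntg MI arrays lay between 0.16 and 0.20. Ntg MI replicate 1 was also the array with high immune genes, whose part in the group's values was not tested; without it 14 members were lower and the median was -0.35.

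Proteins of the mitochondrial ribosome, which translates the few proteins encoded by mitochondrial DNA, were examined after their values were seen. All 76 measured members lay below 0, 18 were called lower, and their median was -0.23. The dnPI3K MI arrays lay wholly below the Ntg MI arrays for 32 of the 76 (4.59% of all tested genes did so). The median on each array, relative to the mean of the 8, was 0.11, 0.09, 0.16 and 0.10 in Ntg MI and -0.07, -0.14, -0.13 and -0.12 in dnPI3K MI, so that the groups did not overlap. Mrps6 read 11.78, 11.79, 11.75 and 11.70 in Ntg MI and 11.14, 11.18, 11.08 and 11.29 in dnPI3K MI. It differed by -0.58 ± 0.07 (SE), with an adjusted p of 1.72e-05, and was followed by Mrpl46 at -0.57 ± 0.10, Mrpl14 at -0.54 ± 0.09 and Mrpl28 at -0.47 ± 0.07 (SE; adjusted p = 0.0011, 0.00045 and 0.00045). With single arrays left out, 10 to 19 members were lower, with 10 without dnPI3K MI replicate 3 and 11 without Ntg MI replicate 3. The count was 6 in the fit on the compared groups alone, 11 with no intensity trend and 28 with array weights, while the median stayed between -0.24 and -0.19. By contrast the 38 measured ribosomal proteins of the cytoplasm had no called member by limma, 2 at an unadjusted p below 0.05, and a median of -0.01.

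Windows upstream of Mrps6, Mrpl14 and Ech1 are printed as examples of mitochondrial genes that were lower together. They are 250 bases long, from the same build, with CAGCTG in capitals.

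Mrps6 (chr16:92058086-92058335, plus strand): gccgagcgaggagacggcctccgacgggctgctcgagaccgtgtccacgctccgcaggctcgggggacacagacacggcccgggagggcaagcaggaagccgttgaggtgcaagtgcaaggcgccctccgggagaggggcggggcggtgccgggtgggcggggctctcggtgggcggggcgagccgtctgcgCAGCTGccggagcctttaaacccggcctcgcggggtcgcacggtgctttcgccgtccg

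Mrpl14 (chr17:45686099-45686348, plus strand): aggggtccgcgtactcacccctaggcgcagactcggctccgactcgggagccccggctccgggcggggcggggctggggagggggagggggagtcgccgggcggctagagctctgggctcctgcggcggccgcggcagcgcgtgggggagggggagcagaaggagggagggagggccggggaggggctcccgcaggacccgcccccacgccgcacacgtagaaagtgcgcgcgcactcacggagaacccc

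Ech1 (chr7:28825088-28825337, plus strand): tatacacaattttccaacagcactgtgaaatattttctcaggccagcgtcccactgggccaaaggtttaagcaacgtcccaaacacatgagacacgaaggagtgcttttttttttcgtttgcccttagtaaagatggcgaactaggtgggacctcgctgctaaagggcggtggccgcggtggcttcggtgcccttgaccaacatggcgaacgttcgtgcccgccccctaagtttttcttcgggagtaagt

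The Mrps6 window held CAGCTG at -58 to -53. Of 67 mitochondrial ribosomal genes with a window, 23.9% held CCGGAAG against 12.0% of tested genes and 10.4% of all genes called lower. The NRF1 site was in 13.4% of the 67, against 7.31% of tested genes and 7.36% of genes called lower. No test was made of these shares.

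**Figure D2:**
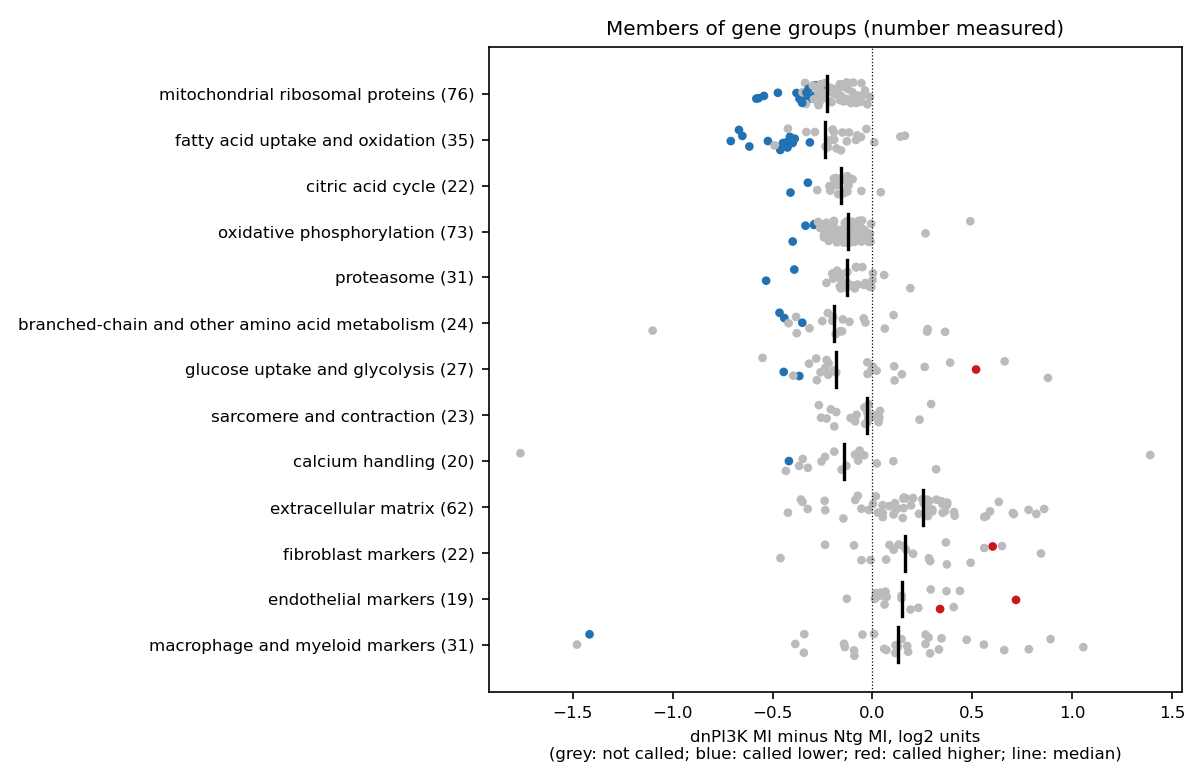
Difference between dnPI3K MI and Ntg MI in log2 units (horizontal axis) for each member of 13 gene groups, with the number measured in brackets and the median as a line. All 76 mitochondrial ribosomal proteins and 32 of 35 fatty acid genes lie below 0, while 51 of 62 extracellular matrix genes lie above 0 with none called.

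The respiratory chain moved less per gene. Of 73 measured genes of oxidative phosphorylation 71 lay below 0, with a median of -0.12, but only 4 were called: Uqcrc1 at -0.34 ± 0.09, Ndufs4 at -0.29 ± 0.07, Ndufv3 at -0.40 ± 0.11 and Ndufa6 at -0.29 ± 0.08 (SE; adjusted p = 0.0279, 0.031, 0.044 and 0.0479). The first is a core protein of complex III and the others belong to complex I. None of the 73 was called without Ntg MI replicate 2, Ntg MI replicate 3 or dnPI3K MI replicate 4, 1 was without dnPI3K MI replicate 1, 2 or 3, and 2 were without Ntg MI replicate 4. In the citric acid cycle 21 of 22 lay below 0, the median was -0.16, and Suclg1 and Suclg2, subunits of succinyl-CoA ligase, were lower at -0.32 ± 0.07 and -0.41 ± 0.09 (SE; adjusted p = 0.0094 and 0.00771). In branched-chain and other amino acid metabolism 3 of 24 were lower: Bckdha, of the branched-chain dehydrogenase, at -0.44 ± 0.09, Hibch, of valine breakdown, at -0.35 ± 0.08, and Pcca, of propionyl-CoA carboxylase, at -0.47 ± 0.10 (SE; adjusted p = 0.00411, 0.00948 and 0.0107). Calls in these groups ended as follows: Suclg1 without Ntg MI replicate 3 (adjusted p up to 0.051); Hibch without Ntg MI replicate 3 or dnPI3K MI replicate 2 (adjusted p up to 0.0581); Pcca without Ntg MI replicate 3 or dnPI3K MI replicate 1 (adjusted p up to 0.0638). Since the bright end of the signal was lower on the dnPI3K MI arrays, the groups were recomputed after quantile normalization: the medians became -0.24 for fatty acid genes with 15 lower, -0.20 for mitochondrial ribosomal proteins with 14 lower, -0.09 for oxidative phosphorylation with 7 lower and -0.11 for the citric acid cycle with 2 lower.

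**Figure D3:**
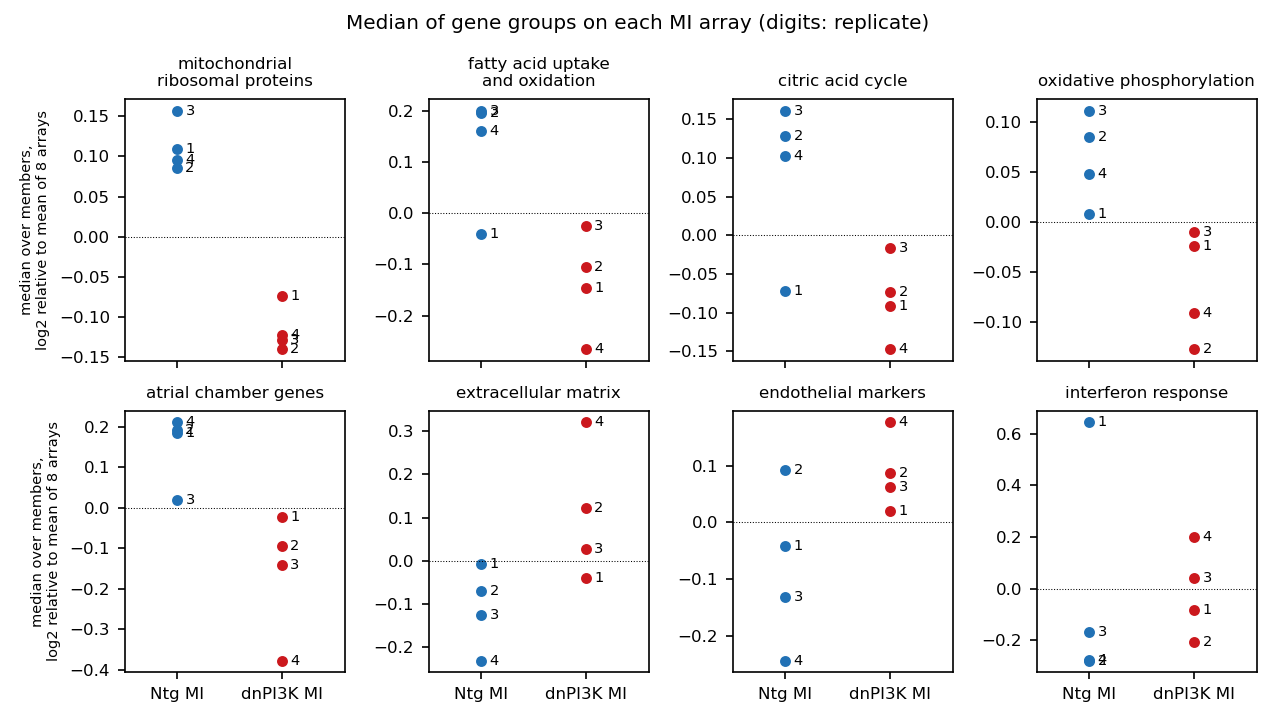
Median over the members of 8 gene groups on each MI array (points, with the replicate number), in log2 units relative to the mean of the 8 arrays. The mitochondrial ribosomal proteins separate the groups completely, Ntg MI replicate 1 falls with the dnPI3K MI arrays for fatty acid and citric acid cycle genes, and the same array stands at 0.64 for interferon response genes.

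Glucose genes went in both directions. Slc2a1, the glucose transporter GLUT1, was higher at 0.52 ± 0.12 (SE; adjusted p = 0.0133). Pfkm, muscle phosphofructokinase, and Pygb, a glycogen phosphorylase, were lower at -0.37 ± 0.08 and -0.44 ± 0.11 (SE; adjusted p = 0.0134 and 0.0258). The insulin-regulated transporter Slc2a4 did not pass, at -0.28 ± 0.10 (SE), with an adjusted p of 0.166. The median of the 27 measured genes was -0.18. Array by array, calls were lost for Slc2a1 without dnPI3K MI replicate 2 (adjusted p up to 0.0694); Pfkm without Ntg MI replicates 3 and 4 (adjusted p up to 0.0738); Pygb without Ntg MI replicates 3 and 4 or dnPI3K MI replicates 1, 2 and 3 (adjusted p up to 0.144). Pdk4, which restrains glucose oxidation, differed by -0.11 ± 0.41 (SE), with an adjusted p of 0.939, with Ntg MI replicate 2 at 13.71 and the other Ntg MI arrays at 12.06 to 12.29.

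Gsta4, a glutathione transferase that clears lipid aldehydes, read 12.05, 12.24, 12.25 and 12.27 on the Ntg MI arrays and 11.50, 11.40, 11.52 and 11.76 on the dnPI3K MI arrays. The groups did not overlap, and the lowest Ntg MI array was replicate 1. Gsta4 differed by -0.66 ± 0.08 (SE), with an adjusted p of 1.49e-05. Nqo1, a quinone reductase, differed by -0.73 ± 0.15 (SE), with an adjusted p of 0.00692, and Gpx3, the secreted glutathione peroxidase, was higher at 0.52 ± 0.10 (SE; adjusted p = 0.00438). With Sod2 these were 4 called of 27 antioxidant genes, whose median was -0.14. Of the small heat shock proteins, 3 were lower: Hspb2 at -0.36 ± 0.07, Hspb3 at -0.56 ± 0.12 and Hspb8 at -0.46 ± 0.10 (SE; adjusted p = 0.00266, 0.0078 and 0.00909). Hspb1, Hspb6, Hspb7 and Cryab of the same class did not pass, at 0.15 ± 0.09, -0.03 ± 0.08, -0.10 ± 0.09 and 0.01 ± 0.07 (SE). The other 21 of the 24 measured heat shock and chaperone genes were not called, and the median of the 24 was -0.03, or 0.00 after quantile normalization. Psmb7 and Psmb3, beta subunits of the proteasome core, were lower at -0.53 ± 0.08 and -0.39 ± 0.07 (SE; adjusted p = 0.000243 and 0.00266), and 27 of 31 proteasome genes lay below 0 with a median of -0.13. After quantile normalization that median was -0.07, and Psmd4, of the proteasome cap, was called higher.

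For genes that mark heart failure and fetal programmes the calls depended on which arrays set the spread. Nppa, the atrial natriuretic peptide, read 15.46, 15.48, 15.57 and 15.51 in Ntg MI and 15.80, 15.69, 15.88 and 15.84 in dnPI3K MI. All 4 dnPI3K MI arrays were above the Ntg MI arrays, yet the difference of 0.30 ± 0.27 (SE), with an adjusted p of 0.661, did not pass. Nppb, the related B-type peptide, read 15.08, 15.30, 15.31 and 15.13 and 15.40, 15.38, 15.44 and 15.37, also without overlap, and differed by 0.19 ± 0.11 (SE), with an adjusted p of 0.467. Myh7, the slow myosin heavy chain, read 14.52, 14.52, 14.46 and 14.51 in Ntg MI and 14.77, 15.06, 15.06 and 14.75 in dnPI3K MI, again all higher, and differed by 0.41 ± 0.34 (SE), with an adjusted p of 0.623. The SE of these genes pools all 6 groups, and in Ntg sham hearts Nppa ran from 13.47 to 15.61 and Myh7 from 12.62 to 15.14. With the spread taken from the MI arrays compared alone, Nppa differed by 0.30 ± 0.06 and Myh7 by 0.41 ± 0.08 (SE; limma adjusted p = 0.0383 and 0.0283), and both passed, whereas Nppb at 0.19 ± 0.07 (SE) had an adjusted p of 0.251. With only Ntg sham replicate 4 left out of the fit of all groups, Nppa differed by 0.30 ± 0.16 and Myh7 by 0.41 ± 0.29. Neither passed in that fit (limma adjusted p = 0.382 and 0.526). Myh6, the fast myosin heavy chain of the adult mouse ventricle, differed by -0.04 ± 0.09 (SE), with an adjusted p of 0.896. Nppa, Nppb and Myh6, like Pln and Atp2a2 above, lay near the highest signals of the arrays. Whether signals this bright understate a difference was not tested, so small values for these genes do not give its size. Ccn2, the connective tissue growth factor, was higher, reading 13.62, 13.65, 13.29 and 13.53 in Ntg MI and 14.09, 14.24, 14.06 and 13.84 in dnPI3K MI. Ccn2 differed by 0.54 ± 0.13 (SE), with an adjusted p of 0.0256, and lost the call without Ntg MI replicates 3 and 4 or dnPI3K MI replicates 1, 2 and 3, with an adjusted p up to 0.121. Fhl2, a LIM-domain partner of the sarcomere and the nucleus, was lower at -0.64 ± 0.11 (SE; adjusted p = 0.00148). Of the 21 measured genes of this group 1 was higher and 3 lower, and the median was 0.13; in the fit on the compared groups alone Nppa and Myh7 made it 3 higher.

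**Figure D4:**
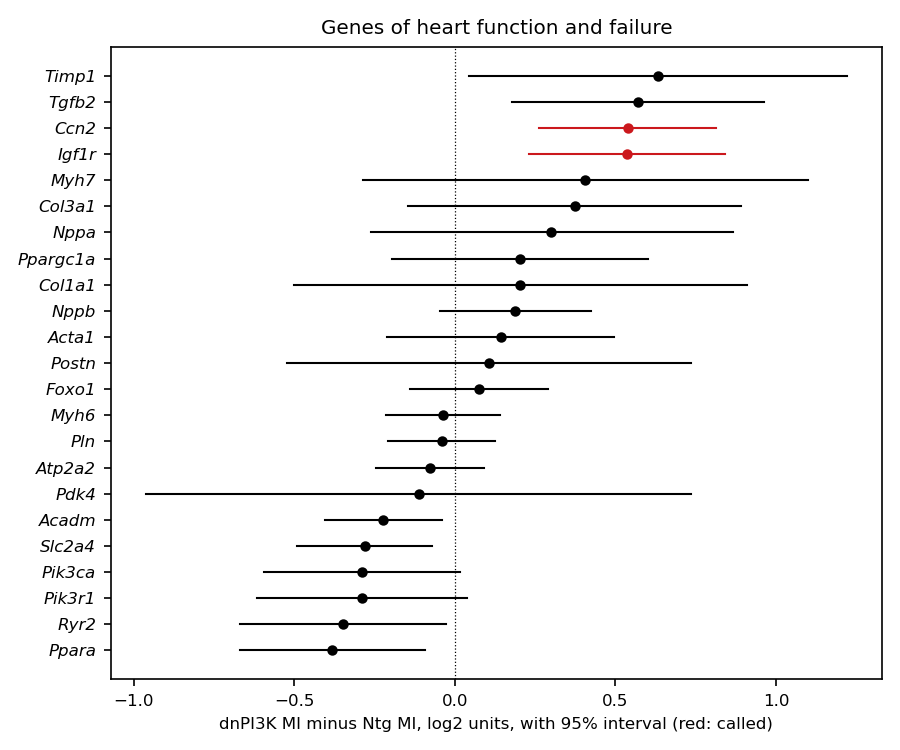
Difference between dnPI3K MI and Ntg MI in log2 units (horizontal axis) with its 95% interval from the limma fit of all 6 groups for 23 genes of heart function and failure. Ccn2 and Igf1r (red) passed the adjusted test, while the intervals of Nppa, Myh7, Col1a1, Postn, Myh6, Pln and Atp2a2 include 0.

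Among genes of the atrial chamber some were lower and others lay above 0. Myl7, the atrial regulatory light chain, read 11.07, 12.15, 11.11 and 12.04 in Ntg MI and 9.81, 10.16, 9.66 and 8.71 in dnPI3K MI, with no overlap. Myl7 differed by -2.01 ± 0.41 (SE), with an adjusted p of 0.00567. Myl4, the atrial essential light chain, differed by -1.30 ± 0.32 (SE), with an adjusted p of 0.0261, and Sln, the atrial calcium pump inhibitor sarcolipin, by -1.76 ± 0.52 (SE), with an adjusted p of 0.0702, which did not pass. A dimmer probe set of Myl4 gave 0.24. With the mean of probe sets Myl4 differed by -0.53 and was not called. Clu, a secreted chaperone, and Stard10, a lipid transfer protein, were the other called members, at -0.48 ± 0.09 and -0.49 ± 0.12 (SE; adjusted p = 0.00266 and 0.0287). In all 4 of 16 atrial genes were lower, none higher, and the median was -0.34. Of the 16, 6 lay above 0, and for 2 of these the dnPI3K MI arrays were wholly above the Ntg MI arrays (3.35% of all tested genes). For 5 of the 16 the dnPI3K MI arrays were wholly below the Ntg MI arrays (4.59% of all tested genes). In the fit on the compared groups alone Dkk3 and Nppa were called higher. Without dnPI3K MI replicate 4 the median was -0.17 with 2 members lower, and 2 were lower without Ntg MI replicate 2 or 4 or dnPI3K MI replicate 1 as well. The group's median on single arrays ran from 0.02 to 0.21 in Ntg MI and from -0.38 to -0.02 in dnPI3K MI. Between the sham genotypes the atrial median lay above 0, at 0.133, with Clu called lower and 1 member called higher. Without Ntg sham replicate 4 it was 0.355. For Myl7 and Sln the arrays of the sham groups overlapped. The lower atrial median was thus seen in infarcted hearts and not in sham hearts, and this contrast was not tested as a group. Between the MI groups, ventricular chamber genes had no called member of 10 by limma, 1 at an unadjusted p below 0.05, and a median of 0.17. The sources used here do not say how much atrium each sample held, and its part in these values was not tested. Array by array, calls were lost for Myl4 without Ntg MI replicates 2 and 4 or dnPI3K MI replicates 1 and 4 (adjusted p up to 0.0961); Stard10 without Ntg MI replicates 2, 3 and 4 or dnPI3K MI replicates 1, 2 and 4 (adjusted p up to 0.0949).

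Most matrix genes lay above 0 without a call, while the labels report more fibrosis in dnPI3K MI hearts. Of 62 measured extracellular matrix genes 51 lay above 0, the median was 0.25, and 0 were called by limma, with 14 at an unadjusted p below 0.05. The 0 depended on the setting: Comp and Fbln5 were called higher after quantile normalization, Lox in the fit on the compared groups alone, Fbln5 and Omd without dnPI3K MI replicate 1, Comp without dnPI3K MI replicate 2, and up to 3 members in other alternatives. The dnPI3K MI arrays lay above all Ntg MI arrays for 11 of the 62 (3.35% of all tested genes did so). Lox, the collagen crosslinking enzyme, had the smallest p and read 8.60, 8.89, 8.59 and 8.13 in Ntg MI and 9.49, 9.07, 9.39 and 9.69 in dnPI3K MI. Its difference was 0.86 ± 0.25 (SE), with an adjusted p of 0.0593. Comp, a cartilage matrix protein, differed by 0.78 ± 0.22 (SE), with an adjusted p of 0.0597. The fibrillar collagens Col1a1 and Col3a1 differed by 0.20 ± 0.34 and 0.37 ± 0.25 (SE; adjusted p = 0.841 and 0.526), and Postn by 0.11 ± 0.31 (SE), with an adjusted p of 0.918. Timp1, an inhibitor of matrix proteases, differed by 0.63 ± 0.29 (SE), with an adjusted p of 0.284, and Tgfb2, a ligand of the TGF-beta family, by 0.57 ± 0.19 (SE), with an adjusted p of 0.123; in each, the dnPI3K MI arrays were all higher. The matrix median was 0.32 on dnPI3K MI replicate 4 and -0.04 to 0.12 on the other dnPI3K MI arrays, against -0.23 to -0.01 in Ntg MI. Between the sham genotypes the median difference of the matrix genes was 0.07 with 0 called. Without Ntg sham replicate 4 it was 0.21 with 1 called higher, so a lean above 0 was not particular to infarcted hearts.

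Markers of other cell types were measured beside these groups. Of 22 fibroblast markers 17 lay above 0, with a median of 0.16, and 1 was called: Tcf21, a transcription factor of resident cardiac fibroblasts. Tcf21 read 10.98, 10.84, 10.75 and 10.79 in Ntg MI and 11.19, 11.57, 11.37 and 11.63 in dnPI3K MI, and differed by 0.60 ± 0.12 (SE), with an adjusted p of 0.00431; its dim second probe set gave 0.12. Of 19 endothelial markers 18 lay above 0, with a median of 0.15, and 2 were called. Vwf, the von Willebrand factor of endothelium and platelets, read 9.98, 10.14, 9.83 and 9.82 in Ntg MI and 10.73, 10.13, 10.56 and 11.22 in dnPI3K MI, with overlap, and differed by 0.72 ± 0.15 (SE), with an adjusted p of 0.00887. Emcn, an endothelial sialoglycoprotein, differed by 0.34 ± 0.09 (SE), with an adjusted p of 0.0428, and lost the call without Ntg MI replicates 3 and 4 or dnPI3K MI replicates 1, 3 and 4 (adjusted p up to 0.17). The fibroblast median on single arrays was -0.24 to 0.01 in Ntg MI and 0.01 to 0.26 in dnPI3K MI, and the endothelial median was -0.24 to 0.09 and 0.02 to 0.18. Between the sham genotypes the fibroblast and endothelial median differences were 0.09 and 0.08, with 0 called in each. Without Ntg sham replicate 4 they were 0.39, with 2 fibroblast markers called higher, and 0.05, with 0 called. The part of a changed cell mix in the muscle and mitochondrial groups was not tested.

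Of 31 macrophage and myeloid markers Retnla, a secreted marker of alternatively activated macrophages, was the only call. Retnla read 9.97, 9.56, 9.76 and 9.16 in Ntg MI and 8.76, 8.79, 7.58 and 7.66 in dnPI3K MI, all lower. It differed by -1.42 ± 0.33 (SE), with an adjusted p of 0.0169, and lost the call without Ntg MI replicate 3 or dnPI3K MI replicates 3 and 4 (adjusted p up to 0.0702). The myeloid median was 0.50 on Ntg MI replicate 1 and -0.35 to -0.12 on the other Ntg MI arrays, against -0.23 to 0.27 in dnPI3K MI. No marker of lymphocytes, smooth muscle, adipocytes, lung, thymus or red cells was called by limma, of 13, 14, 7, 7, 6 and 5 measured, and those at an unadjusted p below 0.05 numbered 0, 5, 1, 0, 0 and 0.

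The sham groups share no array with the infarcted groups and show the genotype difference without infarction. There 165 genes were called (1.12%), 61 higher (0.413%) and 104 lower (0.704%). Of these, 80 were also called in infarcted hearts in the same direction, which is 48.5% of the sham list and 21% of the MI list, and 0 were called in the opposite one. Of the 381 genes called in infarcted hearts, 83 of the 96 higher and 257 of the 285 lower had the same sign in sham hearts, while 57.9% of all tested genes did. The sham list held 77 genes without dnPI3K sham replicate 2, and its higher part held 39 without Ntg sham replicate 3 and 37 without dnPI3K sham replicate 3. The median sham difference was 0.27 for the higher and -0.22 for the lower genes.

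Muscle and pathway genes were among those called in both operations. In sham hearts Myl1 differed by -2.12 ± 0.20, Casq1 by -1.52 ± 0.17, Grb14 by -0.60 ± 0.09 and Irs1 by 1.07 ± 0.12 (SE; adjusted p = 8.05e-07, 6.15e-06, 0.000506 and 5.66e-06). Irs1 was 11.25, 11.17, 11.14 and 10.74 on the Ntg sham arrays and 12.16, 12.05, 12.24 and 12.12 on the dnPI3K sham arrays, which did not overlap. Bex1 was 11.30, 11.43, 10.98 and 8.60 in Ntg sham and 13.62, 13.66, 13.50 and 13.30 in dnPI3K sham, all of the latter higher, with a difference of 2.94 ± 0.39 (SE; adjusted p = 5.19e-05). Dusp4 differed by 1.95 ± 0.25, Plbd1 by -1.35 ± 0.16 and Cyp2b10 by -2.99 ± 0.39 (SE; adjusted p = 3.66e-05, 1.13e-05 and 4.55e-05). Nppa was called in sham hearts, at 1.65 ± 0.27 (SE; adjusted p = 0.000932), with Ntg sham replicate 4 at 15.61 and the other Ntg sham arrays at 13.47 to 14.27. Bex1 was also lowest on that array. Without it the sham differences were 2.12 ± 0.18 for Nppa, 2.28 ± 0.26 for Bex1 and -1.81 ± 0.15 for Myl1 (SE; adjusted p = 4.15e-08, 1.05e-05 and 4.11e-08).

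Mitochondrial genes had these values in the sham groups. The median of the mitochondrial ribosomal proteins was -0.06 with 0 called, that of the fatty acid genes -0.16 with Cpt2 and Slc25a20 called lower, and that of oxidative phosphorylation -0.02 with 0 called. Mrps6 differed by -0.27 ± 0.07, Ech1 by -0.36 ± 0.12 and Psmb7 by -0.06 ± 0.08 (SE; adjusted p = 0.0569, 0.16 and 0.844). Without Ntg sham replicate 4 the fatty acid median was -0.23 with 3 lower, and Ech1 passed at -0.47 ± 0.11 (SE; adjusted p = 0.0323). Whether any of these groups differed more after infarction than in sham hearts was not tested as a group. Htra4 was 8.78, 8.35, 8.61 and 9.19 in Ntg sham and 8.47, 9.06, 8.91 and 8.43 in dnPI3K sham, with overlap, and differed by -0.01 ± 0.17 (SE; adjusted p = 0.992).

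**Figure D5:**
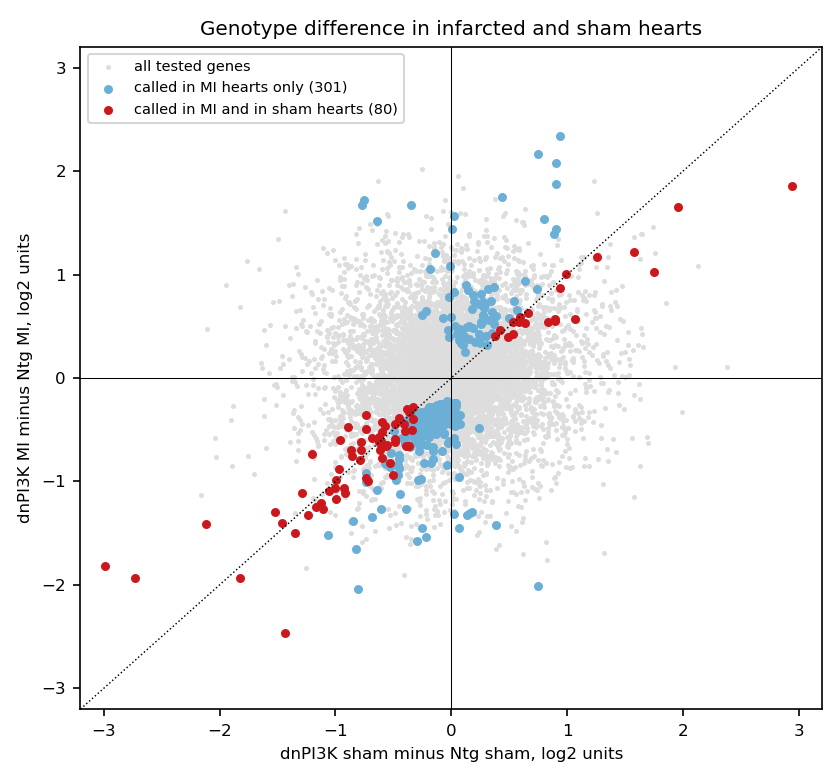
Genotype difference in sham hearts (horizontal axis) and in infarcted hearts (vertical axis), both in log2 units, for all 14763 tested genes (grey), the genes called in infarcted hearts (blue) and the 80 called in both (red). The 80 red points lie where both differences have the same sign, and the dotted line marks equal differences.

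Whether a genotype difference was particular to infarcted hearts was tested as the difference of the differences. By limma 0 genes passed (0%), and 1122 had an unadjusted p below 0.05. The 5 genes of smallest p were Cox16 at -0.75, Myl7 at -2.75, Pdcd2 at -0.81, Mfap3 at 0.58 and Htra4 at 1.10, with adjusted p from 0.243 to 0.352. For Mrps6 the value was -0.31 with a 95% interval from -0.51 to -0.10, and for Ech1 -0.31, from -0.64 to 0.03. No gene's difference was thus shown to belong to infarcted hearts alone. With either Ntg sham replicate 2 or Ntg sham replicate 4 left out, 1 gene passed.

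The hearts with raised PI3K activity give values to set beside these, though both comparisons use the same 4 Ntg MI arrays and are not separate evidence. Between caPI3K MI and Ntg MI 0 genes were called by limma (0%), with 682 at an unadjusted p below 0.05. There Bex1 differed by -1.57, Dusp4 by -0.59, Irs1 by -0.55, Myl1 by 0.74, Scn4b by 0.72, Casq1 by 0.37 and Grb14 by 0.18. In dnPI3K MI the same genes differed by 1.86, 1.66, 0.57, -1.41, -1.09, -1.30 and -0.77 in that order. These 7 genes were chosen among those described above, and all have opposite signs in the caPI3K and dnPI3K comparisons. Other called genes described here did not: Ccdc68, Vwf, Frzb, Tcf21 and Cyp2b10 had the same sign in both. Over all called genes the caPI3K MI medians were 0.05 for the 96 higher and -0.02 for the 285 lower in dnPI3K MI. The caPI3K MI medians were -0.02 for mitochondrial ribosomal proteins, -0.02 for fatty acid genes and 0.01 for matrix genes.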

How the data were processed

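The values are signal intensities that the authors deposited for 45101 probe sets on 24 arrays; MAS5 made them, per the submitters' processing notes, while the sources used here give neither its version nor its scaling target. No further normalization was applied. After leaving out 64 controls, 34945 probe sets named 1 gene, 932 several and 9160 none in the platform annotation; 34741 matched RefSeq. Probe sets above the 40th percentile of their array on at least 4 arrays were kept, and each gene took its brightest, which left 14763 genes. The constant 11.2 added before log2 is the median signal divided by 10 and compresses differences of dim genes. limma 3.58.1 (R 4.3.3, with the package data.table, version 1.17.8) fitted 6 group means to 24 arrays with an intensity trend and 18 residual degrees of freedom, and genes at an adjusted p below 0.05 are called. The code was tested on simulated data. Arrays, not reading depth, limit precision. Replicates are numbered in accession order. Promoter windows come from RefSeq (GRCm38.p6). Figures used matplotlib 3.10.9 and Python 3.11.15 with pandas 2.3.3.

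Named genes were drawn from 23 measured heart genes written by name, the 15 called genes of largest difference without overlap in each direction, up to 3 members of smallest p (and all called members where 6 or fewer) of each gene group, and the 5 of smallest p in the difference of differences. Not every uncalled gene that fits is described. Fatty acid members beyond these, Lrtm1, Hjv and the mitochondrial ribosomal and Asb families were chosen after their values were seen. The comparison, groups and lists were chosen with earlier results of these data known, so counts over a group are descriptions with no test of the group. Alternatives were other constants, quantile normalization, other filters, a fit on the compared arrays alone, no trend, array weights, the mean of probe sets, a term for array numbers under 1000 and leaving out each array.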

Additional observations from a re-analysis of the deposited data

Results flagged for a closer look

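Among 306 groups of 4 arrays examined for the named genes, 17 had an array far from the other 3; chance gives about 1 in 20. Ntg MI replicate 1 was the array apart for Acaa2 (12.76), Acadm (14.81), Acadvl (13.63) and Gsta4 (12.06), each below the other Ntg MI arrays, and for 4930448K20Rik (5.18), above them. Other Ntg MI arrays apart were replicate 2 for Dusp4 (7.13, low) and Pdk4 (13.71, high), and replicate 3 for Gpx3 (13.11, low) and Pcca (12.23, high). In dnPI3K MI, replicate 4 lay apart for Acaa2 (11.73, low) and Timp1 (10.03, high), replicate 2 for Tgfb2 (11.24, high) and Gm20199 (7.35, high), and replicate 3 for Bcl6 (8.15, low). In the sham groups Ntg sham replicate 4 lay apart for Bex1 (8.60, low) and Casq1 (11.95, high), and dnPI3K sham replicate 3 for Mrps6 (11.56, high). For Acaa2, Acadm, Acadvl and Gsta4 the low Ntg MI replicate 1 lay toward the dnPI3K MI arrays.

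Probe sets that name no gene or several genes were not used in any comparison above. Of 5934 tested by limma, 19 were called between dnPI3K MI and Ntg MI, 3 higher and 16 lower.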

How the results depend on the processing

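The number of called genes moved by more than 1.5 times under some settings. Every gene shared with the 381 kept its direction. These fits use the same or nearly the same arrays, so the shared direction is no separate support. Fitting the compared arrays alone gave 191 calls (57 higher, 134 lower, 172 shared with the 381), and no intensity trend gave 243 (59 and 184, 235 shared). Leaving out single arrays gave 217 to 491 calls, 44 to 136 higher and 173 to 355 lower. In sham hearts the compared arrays alone gave 73 calls (29 and 44), no trend 101 (36 and 65), the mean of probe sets 32 higher, and single arrays left out 77 to 187 calls, 24 to 70 higher and 53 to 124 lower; the low of 77 calls came without dnPI3K sham replicate 2. With the spread estimated without Ntg sham replicate 4 (chosen after seeing the data) 470 genes were called between the MI groups, 127 higher and 343 lower, all 381 among them. The difference of differences had 0 to 1 calls with single arrays left out. Quantile normalization gave 414 calls, 71.7% of them lower against 74.8%, and the median of all genes went from 0.01 to -0.02. A term for array numbers under 1000 gave 322 calls between the MI groups (72 higher, 250 lower, 280 shared with the 381).

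Of 103 called genes re-tested, 44 stayed called in all 20 alternatives, among them Casq1, Myl1, Grb14, Irs1, Dusp4, Bex1, Htra4, Ech1 and Mrps6. Signs turned for these uncalled or probe-dependent values: Myh6 to 0.019, Cpt2 to 0.044 and Tac1 to -0.053 with the mean of probe sets, Ppargc1a to -0.001 without replicate 1 of both MI groups (chosen after seeing the data; 417 calls), and Pdk4 to 0.017 with array weights, 0.084 with the array-number term, and -0.502 to 0.273 with single arrays left out. Averaging with a dim probe set of opposite sign accounts for Cpt2 and Tac1. Averaging also accounts for Myh6, whose probe sets gave -0.036 and, for the dimmer, 0.073. For Ppargc1a and Pdk4 the cause was not tested. No paired analysis was possible because the labels give array numbers and no replicate numbers shared between groups. With 4 arrays a group, in dim genes above all, small differences could be missed.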

Other observations

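Members of the Asb family, which link target proteins to ubiquitin ligases and several of which are known from muscle, were looked at after their values were seen. Of 16 measured, 4 were called lower and none higher: Asb5 at -0.69 ± 0.14, Asb10 at -0.65 ± 0.13, Asb15 at -0.50 ± 0.11 and Asb2 at -0.33 ± 0.07 (SE; limma adjusted p = 0.00432, 0.00407, 0.0105 and 0.0118). Asb5 read 10.92, 10.86, 11.15 and 10.79 in Ntg MI and 10.10, 10.15, 10.51 and 10.20 in dnPI3K MI, without overlap. In sham hearts Asb5 and Asb2 were also lower, at -0.87 ± 0.14 and -0.36 ± 0.07 (SE; adjusted p = 0.000461 and 0.00832). The family's median was -0.17, or -0.03 without dnPI3K MI replicate 4 and -0.26 without Ntg MI replicate 4, and its highest member stood at 1.74 without a call.

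Single calls fell in other groups. Frzb, a secreted antagonist of Wnt ligands, was higher at 0.74 ± 0.15 (SE; adjusted p = 0.00512), the only call of 21 Wnt genes, and read 11.36, 11.61, 11.15 and 11.31 in Ntg MI and 11.74, 12.17, 12.05 and 12.41 in dnPI3K MI, without overlap. Mal, a membrane lipid protein of myelin, was lower at -0.76 ± 0.13 (SE; adjusted p = 0.0013), the only call of 11 nerve and Schwann cell markers, and Hopx, a homeodomain-only regulator of heart growth, was lower at -0.54 ± 0.12 (SE; adjusted p = 0.0105). Endog, a mitochondrial nuclease, was lower at -0.40 ± 0.09 and Bcl2, which restrains cell death, higher at 0.58 ± 0.15 (SE; adjusted p = 0.0078 and 0.0276); the Bcl2 call ended without Ntg MI replicates 1, 2 and 4 or dnPI3K MI replicates 3 and 4 (adjusted p up to 0.101). Mef2a, in the same group of cardiac transcription factors as Hopx, and Dgat2, of the PPAR group, were also called lower, at -0.24 and -0.61. Ccnd2, of cell division, and Gnai3 and Npr3, of the adrenergic group, were called higher, at 0.40, 0.36 and 0.54. Each of these calls ended when some single array was left out. None of 26 stress response, 26 immediate early, 27 TGF-beta and 18 clock genes was called by limma, and 4, 2, 6 and 1 of them had an unadjusted p below 0.05.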
